A study of Mus musculus with 6 samples.

Results

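The glutathione and thioredoxin antioxidant system was followed here through 10 genes: the cystine transporter subunit Slc7a11, the glutathione synthesis enzymes Gclc, Gclm and Gss, the glutathione reductase Gsr, the glutathione peroxidase Gpx2, the thioredoxin reductase Txnrd1, the sulfiredoxin Srxn1, the peroxiredoxin Prdx1 and the heme oxygenase Hmox1. They were taken by gene symbol from a list drawn up with earlier results of these data known. Each of the 10 had 1 probe set among the 19505 genes on the arrays. RNA came from small intestinal crypts of mice with the strain background C57bl/6, detached in EDTA once villi had been scraped away, and was hybridised to Affymetrix arrays, 1 per sample. CSN8fl/fl mice carry a floxed gene for CSN8 (Cops8), a subunit of the COP9 signalosome, which takes the ubiquitin-like protein NEDD8 off cullin ubiquitin ligases, and CSN8ΔIEC mice are those in which, by the name of the genotype, it is deleted in intestinal epithelial cells. Each genotype had 3 samples. Replicates 1 and 2 of each were labelled female and 16 weeks old, and replicate 3 male and 10 weeks old. The labels name neither the driver of the deletion nor any treatment. The study asked whether loss of CSN8 affects antimicrobial peptide production, and the question here is whether these antioxidant genes differ with it.

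The sex labels went against the data in all 6 libraries. The Y-linked genes Eif2s3y, Uty and Kdm5d had log2 signals of 7.50 to 10.1 in the 4 libraries labelled female and of 2.81 to 4.06 in the 2 labelled male, so the labels are used only as names of the libraries. CSN8fl/fl replicate 3 stood apart, with Pearson correlations across genes of 0.976 to 0.986 with the other 5 libraries. Those 5 correlated with each other at 0.986 to 0.994, so its highest value was close to their lowest. Cops8 was at 8.26, 8.22 and 8.10 in CSN8fl/fl and at 7.68, 7.61 and 7.77 in CSN8ΔIEC (difference −0.50 ± 0.11, adjusted p = 0.0865). The labels and tables do not say whether its probes lie in the deleted part of the gene. The mean of 9 crypt epithelium markers was 11.97 to 12.05 in CSN8fl/fl and 11.86 to 12.07 in CSN8ΔIEC, with 0 past the threshold in limma. Among them Epcam was between 12.48 and 12.70 on every array. Cdh1 was slightly higher on every CSN8ΔIEC array (13.24 to 13.32) than in CSN8fl/fl (13.12 to 13.16). Lyz1, also a Paneth cell marker, was the 1 gene of the list with an unadjusted p under 0.05 (−0.51 ± 0.22, adjusted p = 0.324). The labels call the samples biological replicates without stating separate mice. The p-values therefore describe the spread of these samples alone, and that spread may be technical in part.

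Glutathione is a tripeptide made in 2 enzymatic steps. Glutamate-cysteine ligase joins glutamate to cysteine, which is often the scarce substrate, and glutathione synthetase then adds glycine. Peroxidases use glutathione to reduce peroxides, glutathione reductase restores it with NADPH, and thioredoxin, restored by its own NADPH-dependent reductase, serves the peroxiredoxins in parallel. Many of these genes, and Hmox1, are known targets of the transcription factor NRF2, which KEAP1 and the cullin ligase CUL3 hold at a low level in unstressed cells. In the gut epithelium GPX2 is known to be most abundant in the crypts.

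Among the 10 genes, those that make glutathione or restore glutathione and thioredoxin had higher signals on each CSN8ΔIEC array. Of these 5, 1 passed the test. The genotypes overlapped for the cystine transporter, Gpx2, Prdx1, sulfiredoxin and heme oxygenase. Outside the 10 this split by enzyme class was kept only in part. The genotypes overlapped for all 13 measured further genes of glutathione peroxidases, glutaredoxins and glyoxalases, and for the peroxiredoxins Prdx2 and Prdx4. The thioredoxin reductase Txnrd3 was higher on every CSN8ΔIEC array, but Txnrd2 overlapped (0.21 ± 0.18, adjusted p = 0.635 in limma). The peroxiredoxin Prdx3 was higher on every CSN8ΔIEC array (0.34 ± 0.12, adjusted p = 0.234). Of the 10 genes, 1 rose and 0 fell at an adjusted p under 0.05 over all genes, and the gene that rose was Gclc (2.40-fold); 0.374% of all genes rose by that rule and 0.702% fell. In 5 of the 10, Gclc, Gclm, Gss, Gsr and Txnrd1, every CSN8ΔIEC value lay above every CSN8fl/fl value, as in 10.7% of all genes, and the same 5 had an unadjusted p under 0.05 with a higher signal, as in 6.95% of all genes (8.01% had a lower signal at that p). In none of the 10 did every CSN8ΔIEC value lie below, as in 11.7% of all genes. The median difference over the 10 was 0.42 on the log2 scale, against −0.011 over all genes. Differences are CSN8ΔIEC minus CSN8fl/fl, ± SE, and p-values are from limma with Benjamini-Hochberg adjustment over all genes.

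**Figure D1:**
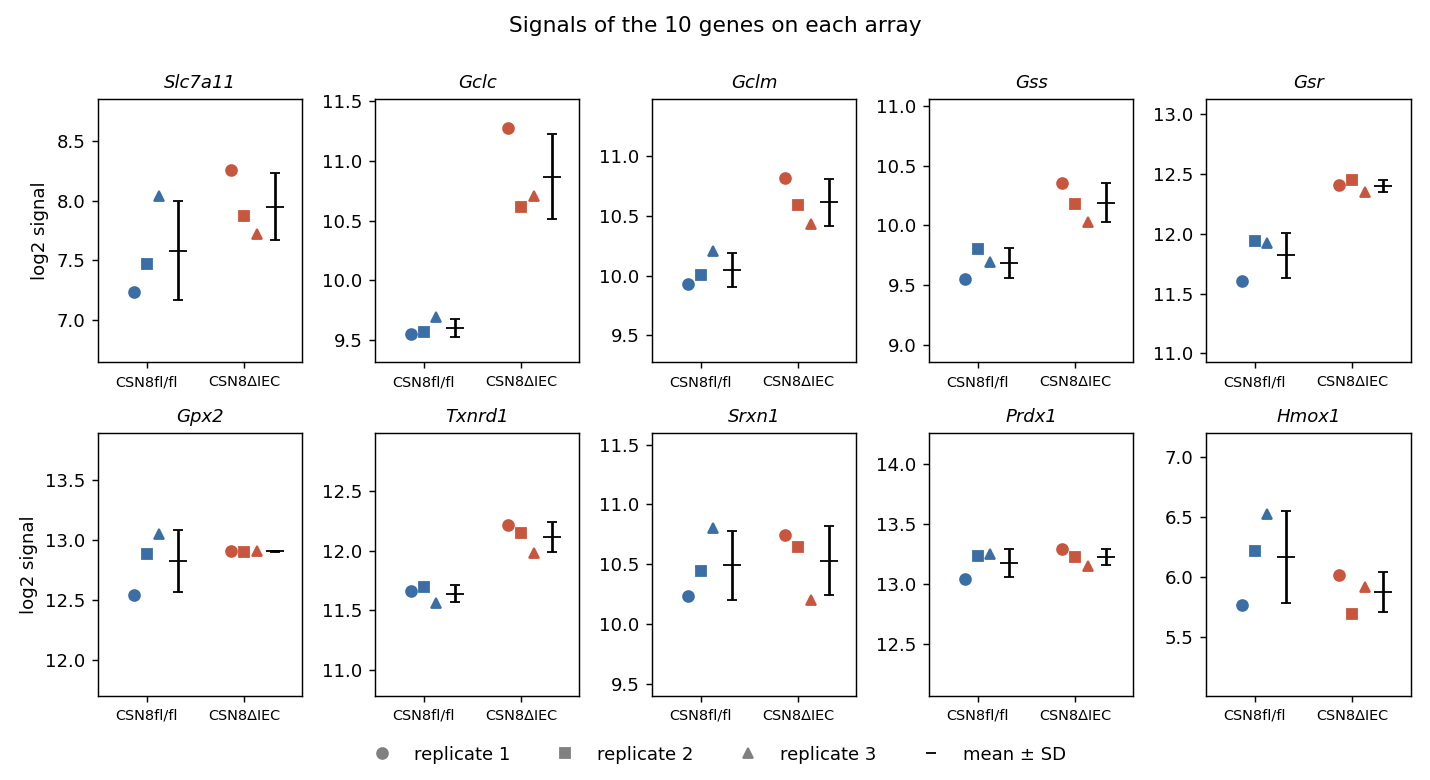
Log2 signal of each of the 10 genes on each of the 6 arrays, by genotype (blue, CSN8fl/fl; red, CSN8ΔIEC; marker shape, replicate number), with the mean and SD of the 3 arrays in black; each panel spans the same number of log2 units, centred on its gene. The genotypes do not overlap for Gclc, Gclm, Gss, Gsr and Txnrd1 and overlap for the other 5 genes.

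The promoter windows of RefSeq (GRCm38.p6, 250 bases before to 50 after a gene's start) are shown for the members that hold the core letters of the antioxidant response element, TGACNNNGC, through which NRF2 is known to act. Windows were found for 7 of the 10 genes, 9 windows in all, of which 3 belong to alternative starts of Txnrd1. Gclc, Gsr and Hmox1 had none in the table. The letters, searched on both strands, occurred in 4 of the 9 windows, those of Gclm, Txnrd1 (1 of its 3 starts), Prdx1 and Srxn1, and in 12.4% of all 32851 windows. They were not in the windows of Gss, Slc7a11 and Gpx2. All 4 matches lie on the strand opposite to the gene, so they read GCNNNGTCA below, in capitals. The first 3 sequences are the 250 bases before the start, at chr3:122245307-122245556 for Gclm, chr10:82858956-82859205 for Txnrd1 and chr4:116685349-116685598 for Prdx1, and the last is the match in Srxn1 with its flanks at chr2:152105542-152105570, all on the plus strand.
Gclm: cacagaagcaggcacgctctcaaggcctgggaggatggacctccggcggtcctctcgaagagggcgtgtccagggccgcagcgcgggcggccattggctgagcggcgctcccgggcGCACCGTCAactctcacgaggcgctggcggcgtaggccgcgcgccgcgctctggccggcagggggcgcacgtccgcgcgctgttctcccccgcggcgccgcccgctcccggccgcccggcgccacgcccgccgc
Txnrd1: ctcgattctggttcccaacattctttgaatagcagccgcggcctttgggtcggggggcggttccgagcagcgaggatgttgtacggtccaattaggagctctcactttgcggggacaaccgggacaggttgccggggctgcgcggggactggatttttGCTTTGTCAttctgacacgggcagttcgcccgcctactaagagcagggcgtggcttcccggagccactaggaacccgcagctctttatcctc
Prdx1: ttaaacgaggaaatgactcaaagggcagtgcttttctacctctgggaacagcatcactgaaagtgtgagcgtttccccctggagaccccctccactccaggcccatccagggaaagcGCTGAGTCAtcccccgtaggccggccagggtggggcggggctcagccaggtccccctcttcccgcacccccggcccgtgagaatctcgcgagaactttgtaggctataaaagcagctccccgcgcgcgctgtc
Srxn1: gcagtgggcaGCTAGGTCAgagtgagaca
The match begins at position −134 from the start in Gclm, −92 in Txnrd1 and −133 in Prdx1, and at position 29 within the transcribed part in Srxn1. In Prdx1 it overlaps TGACTCA, the letters of an AP-1 site, which were searched on both strands and occur in 5.20% of all windows. The windows of Prdx1 and Srxn1 each hold these letters 2 times, and in Srxn1 they do not overlap the match. These are matches of letters and not measured binding sites. Signals were higher on every CSN8ΔIEC array for Gclm and Txnrd1, and overlapped between genotypes for Prdx1 and Srxn1. Whether the letters have a part in these signals was not tested.

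Cystine enters cells through the exchanger of which Slc7a11 (gene ID 26570) encodes the transport subunit. In CSN8fl/fl its signal was 7.24, 7.47 and 8.04 on the arrays of replicates 1, 2 and 3, and in CSN8ΔIEC it was 8.26, 7.87 and 7.72, an order kept for the values that follow. The groups overlapped, with CSN8fl/fl replicate 3 above 2 of the CSN8ΔIEC arrays. The difference of 0.37 ± 0.22, or 1.29-fold with a 95% interval of 0.913 to 1.83, did not pass (adjusted p = 0.472). Without CSN8fl/fl replicate 3 it was 0.60 (adjusted p = 0.219), but 0.20 when CSN8fl/fl replicate 1 was omitted, and without CSN8ΔIEC replicate 1 it was 0.21. Slc3a2, which encodes the partner chain of the exchanger, differed by −0.14 ± 0.14 (adjusted p = 0.677).

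Gclc (gene ID 14629), the catalytic subunit of glutamate-cysteine ligase, had the largest difference of the 10. Its signal was 9.56, 9.57 and 9.69 in CSN8fl/fl and 11.27, 10.62 and 10.71 in CSN8ΔIEC. The CSN8fl/fl arrays lay close together (9.60 ± 0.076, SD, n = 3), and the CSN8ΔIEC arrays were spread more widely (10.87 ± 0.36), with replicate 1 the highest. The rise of 1.26 ± 0.18, or 2.40-fold with a 95% interval of 1.82 to 3.16, passed the threshold (adjusted p = 0.0166). It was between 1.06 (without CSN8ΔIEC replicate 1) and 1.39 (without CSN8ΔIEC replicate 2) when any 1 array was left out. Without CSN8fl/fl replicate 2 the gene did not pass (adjusted p = 0.0584), nor with the 4 libraries labelled female alone (difference 1.38, adjusted p = 0.0793), and it passed in the other 12 alternatives. Over the 14 alternatives its adjusted p lay between 0.00632 and 0.0793.

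Gclm (gene ID 14630) encodes the modifier subunit, which raises the affinity of the ligase for its substrate. Its signal was 9.93, 10.00 and 10.21 in CSN8fl/fl and 10.82, 10.59 and 10.43 in CSN8ΔIEC. The groups did not overlap, with 0.22 between the highest CSN8fl/fl array and the lowest CSN8ΔIEC array, both replicate 3. The difference of 0.57 ± 0.14, or 1.48-fold with an interval of 1.19 to 1.85, did not pass (adjusted p = 0.113). The Gclc minus Gclm value on the same array was −0.38, −0.43 and −0.51 in CSN8fl/fl and 0.46, 0.025 and 0.28 in CSN8ΔIEC, a shift of 0.70. The groups of this value did not overlap (exact permutation p = 0.1, two-sided, the smallest that 3 against 3 arrays allow, 0.2 after adjustment over 4 such pairs of genes). The pairs were picked with the values known and the design cannot pass, so the shift is a description. Its size in 1 array has no meaning across 2 probe sets, and the change between genotypes is the measurement.

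Gss (gene ID 14854) encodes glutathione synthetase, which completes the tripeptide. Its signal was 9.55, 9.80 and 9.70 in CSN8fl/fl and 10.36, 10.18 and 10.03 in CSN8ΔIEC, again without overlap. The difference of 0.51 ± 0.13, or 1.42-fold with an interval of 1.15 to 1.75, did not pass (adjusted p = 0.123). All 3 synthesis genes were highest in CSN8ΔIEC replicate 1.

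**Figure D2:**
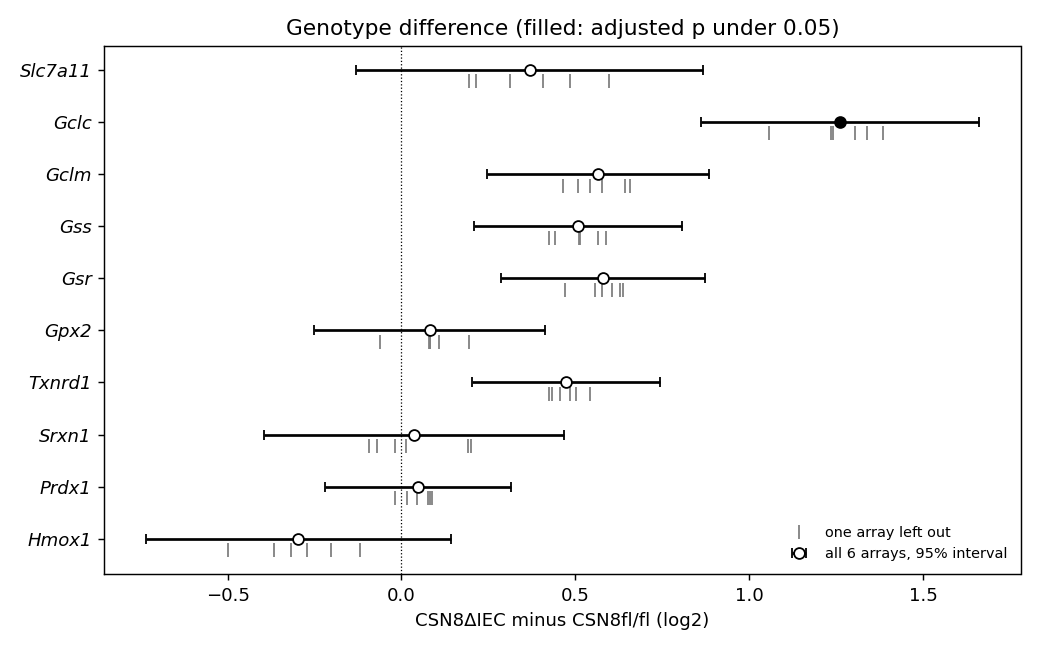
Genotype difference of each of the 10 genes, as CSN8ΔIEC minus CSN8fl/fl on the log2 scale, with its 95% interval from limma (filled circle, adjusted p under 0.05), and below it the 6 differences with 1 array left out (grey ticks). Only the Gclc circle is filled, the ticks of Gclc, Gclm, Gss, Gsr, Txnrd1 and Slc7a11 all lie above 0 and those of Gpx2, Srxn1 and Prdx1 lie on both sides of it.

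Gsr (gene ID 14782) encodes glutathione reductase. Its signal was 11.60, 11.94 and 11.92 in CSN8fl/fl and 12.40, 12.45 and 12.35 in CSN8ΔIEC. The CSN8ΔIEC arrays lay close together (12.40 ± 0.050) and all above CSN8fl/fl, where replicate 1 was the lowest. The difference of 0.58 ± 0.13, or 1.49-fold with an interval of 1.22 to 1.83, did not reach the threshold (adjusted p = 0.0829). It did so when dim genes were left out (adjusted p = 0.046) and with a variance that follows the signal and is robust to outlying genes (adjusted p = 0.0378), and its adjusted p over the 14 alternatives reached 0.28.

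Gpx2 (gene ID 14776), the gastrointestinal glutathione peroxidase, was at 12.54, 12.88 and 13.05 in CSN8fl/fl and at 12.90, 12.90 and 12.91 in CSN8ΔIEC. The 3 CSN8ΔIEC values were nearly the same (SD 0.0041) and lay inside the range of CSN8fl/fl. The difference of 0.081 ± 0.15, or 1.06-fold with an interval of 0.841 to 1.33, did not pass (adjusted p = 0.83), and without CSN8fl/fl replicate 1 it was −0.061. For Gsr and Gpx2, which restore and use glutathione, the Gsr minus Gpx2 value was −0.94, −0.94 and −1.13 in CSN8fl/fl and −0.50, −0.46 and −0.56 in CSN8ΔIEC, a shift of 0.50 with no overlap (exact permutation p = 0.1, two-sided, 0.2 after adjustment over the 4 pairs).

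Txnrd1 (gene ID 50493) encodes the cytosolic thioredoxin reductase, a selenoprotein. Its signal was 11.66, 11.70 and 11.56 in CSN8fl/fl and 12.21, 12.15 and 11.98 in CSN8ΔIEC. The groups did not overlap, and the spread was small in each (SD 0.072 and 0.12). The difference of 0.47 ± 0.12, or 1.39-fold with an interval of 1.15 to 1.67, did not pass (adjusted p = 0.113). It was between 0.42 and 0.54 without any 1 array. For the glutathione and thioredoxin reductases the Gsr minus Txnrd1 value shifted by 0.11 between genotypes, with overlapping groups (exact permutation p = 0.6, two-sided, 0.8 after adjustment over the 4 pairs).

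Prdx1 (gene ID 18477) encodes an abundant thioredoxin-dependent peroxidase, and Srxn1 (gene ID 76650) encodes sulfiredoxin, which repairs peroxiredoxins that have been over-oxidised. Prdx1 was at 13.04, 13.23 and 13.25 in CSN8fl/fl and at 13.29, 13.23 and 13.15 in CSN8ΔIEC. The groups overlapped almost wholly, with a difference of 0.049 ± 0.12, or 1.03-fold with an interval of 0.859 to 1.24 (adjusted p = 0.877). Srxn1 was at 10.23, 10.45 and 10.80 in CSN8fl/fl and at 10.74, 10.64 and 10.20 in CSN8ΔIEC. Replicates 3 were the highest of CSN8fl/fl and the lowest of CSN8ΔIEC, and the difference was 0.037 ± 0.19, or 1.03-fold with an interval of 0.761 to 1.38 (adjusted p = 0.944). The Srxn1 minus Prdx1 value shifted by −0.012 (exact permutation p = 1, two-sided).

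Hmox1 (gene ID 15368) encodes the inducible heme oxygenase, which opens the heme ring, and is known to be active in macrophages as well as in stressed epithelium. Its signal was 5.76, 6.22 and 6.52 in CSN8fl/fl and 6.01, 5.69 and 5.92 in CSN8ΔIEC. This was the only gene of the 10 with a negative difference, −0.30 ± 0.19, or 0.815-fold with an interval of 0.601 to 1.10, and it did not pass (adjusted p = 0.51). Omitting CSN8fl/fl replicate 3 gave −0.12 and omitting CSN8fl/fl replicate 1 gave −0.50, and at these low signals the gene fell below the limit of the setting without dim genes. The mean log2 signal of 11 macrophage and myeloid markers was 6.20 to 6.35 in CSN8fl/fl and 6.19 to 6.37 in CSN8ΔIEC, with 0 of the 11 past the threshold in limma and 3 at an unadjusted p under 0.05. These 3 went both ways: Cd14, a receptor for lipopolysaccharide, was higher on every CSN8ΔIEC array (0.75 ± 0.28, adjusted p = 0.263), while the lysozyme Lyz2 (−0.72 ± 0.25, adjusted p = 0.226) and the complement gene C1qc (−0.36 ± 0.15, adjusted p = 0.309) were lower on every one. The part of such cells in the Hmox1 values was not tested.

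With all 6 arrays the upper bounds of the intervals of Gpx2, Srxn1, Prdx1 and Hmox1 were 1.33-, 1.38-, 1.24- and 1.10-fold, and the lower bound of Gclc was 1.82-fold. The upper bound of Slc7a11, 1.83-fold, was 2.02-fold without CSN8fl/fl replicate 3 and 2.21-fold with the libraries labelled female alone. With these libraries alone, the upper bounds of Gpx2, Srxn1, Prdx1 and Hmox1 were also higher, at 1.49-, 1.62-, 1.37- and 1.27-fold. The Srxn1 interval then began at 1.007-fold, and the lower bound of Gclc was 1.80-fold. The order of the arrays within a genotype was often the same among the 10 genes. Within CSN8fl/fl, replicate 1 was the lowest for 9 of the 10 genes and replicate 3 the highest for 7. Within CSN8ΔIEC, replicate 1 was the highest for 8 and replicate 3 the lowest for 7. The shares of all genes with these ranks were not counted, so whether the order is particular to the 10 genes was not tested. The signed genotype difference was lower between the 2 libraries labelled male than between those labelled female for all 10 genes, as for 48.1% of all genes. For Gclc it was 1.02 and 1.38, for Gclm 0.22 and 0.74, for Gss 0.33 and 0.59, for Gsr 0.43 and 0.66 and for Txnrd1 0.42 and 0.50, each above 0 in both. For Slc7a11, Srxn1, Gpx2 and Prdx1 it was below 0 in the libraries labelled male (−0.32, −0.60, −0.14 and −0.098) and above 0 in those labelled female (0.71, 0.35, 0.19 and 0.12), and for Hmox1 it was −0.61 and −0.14. For Slc7a11, Srxn1 and Gpx2 both CSN8ΔIEC values lay above both CSN8fl/fl values among the libraries labelled female while the order was opposite among those labelled male, as in 6.26% of all genes. For Gpx2 this was nearly a tie, with CSN8fl/fl replicate 2 at 12.88 and both CSN8ΔIEC arrays labelled female at 12.90. Among the libraries labelled female alone, 8 of the 10 genes had non-overlapping, higher CSN8ΔIEC values, as 20.4% of all genes had. A test of the difference between the labels (the interaction with genotype in limma) passed for 0 of the 10 genes, with unadjusted p under 0.05 for Slc7a11 (0.0141) and Srxn1 (0.0075; adjusted p = 0.421 for both), and for 0 of all genes (1 gene, none of the 10, with trended robust variances), 10.1% of which had an unadjusted p under 0.05. Only 1 library of each genotype carried the label male, so label and library cannot be told apart.

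**Figure D3:**
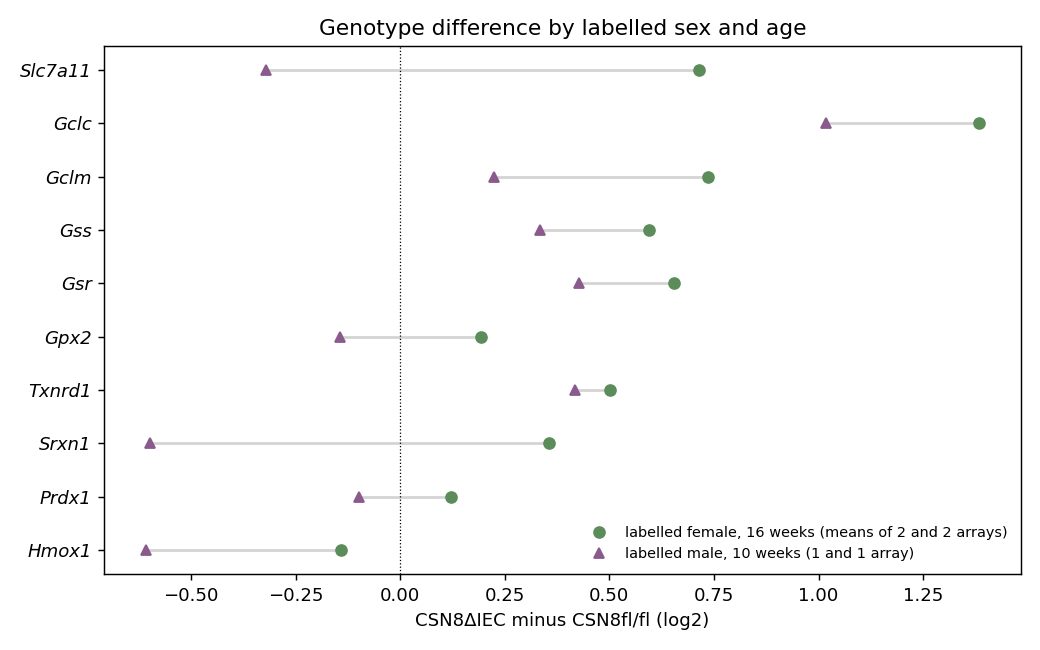
Genotype difference (CSN8ΔIEC minus CSN8fl/fl, log2) of the 10 genes in the libraries labelled female of 16 weeks (circles, means of 2 arrays per genotype) and in those labelled male of 10 weeks (triangles, 1 array per genotype). Every triangle lies to the left of its circle, and Gclc, Gclm, Gss, Gsr and Txnrd1 have both above 0.

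Markers of other cells moved with the genotype and with CSN8fl/fl replicate 3. Of 11 Paneth cell markers 7 fell in CSN8ΔIEC and 0 rose, with a mean signal of 12.39 to 12.43 in CSN8fl/fl and 10.54 to 11.48 in CSN8ΔIEC. Of 10 tuft cell markers 4 fell and 0 rose, with a mean of 7.22, 7.40 and 8.81 on the CSN8fl/fl arrays and of 5.94 to 6.01 on those of CSN8ΔIEC. The mean of 8 stem cell and proliferation markers was 9.36, 9.24 and 8.71 in CSN8fl/fl and 9.45 to 9.59 in CSN8ΔIEC. That of 8 enterocyte markers was 12.56, 12.55 and 12.99 against 12.28 to 12.80. In limma 0 of either list passed the threshold (5 and 2 at an unadjusted p under 0.05). Of the stem cell and proliferation markers, 6 were higher on every CSN8ΔIEC array, as were 10.7% of all genes, and 0 were lower on every one. Of the enterocyte markers, 1 was lower on every CSN8ΔIEC array, as were 11.7% of all genes, and 0 were higher on every one. The mean of 9 T cell and intraepithelial lymphocyte markers was 7.89, 7.63 and 8.46 in CSN8fl/fl and 7.45 to 7.84 in CSN8ΔIEC, and that of 6 B cell and plasma cell markers was 7.03, 6.99 and 5.78 against 6.53 to 6.61, with 0 of either past the threshold (2 in each at an unadjusted p under 0.05). Of 9 stromal and endothelial markers 1 rose, the smooth muscle actin Acta2 (0.66 ± 0.12, adjusted p = 0.0366), and 0 fell, with a mean of 5.46 to 5.55 in CSN8fl/fl and 5.48 to 5.57 in CSN8ΔIEC. On arrays of whole crypts fewer cells of a type and less RNA per cell cannot be told apart, and the part of these shifts in the results on the 10 genes was not tested. Without CSN8fl/fl replicate 3, the CSN8ΔIEC values of 7 of the 10 genes, now with Slc7a11 and Gpx2, lay above all CSN8fl/fl values, as in 15% of all genes, and 1 gene, Gclc, passed. The margin of Gpx2 was small (12.88 in CSN8fl/fl replicate 2 against 12.90 in CSN8ΔIEC replicate 2).

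The wider system was described with 8 lists of 91 further genes, of which 84 were measured. At the threshold 1 of the 84 rose and 0 fell, against 0.374% and 0.702% of all genes. At an unadjusted p under 0.05 there were 11 higher and 7 lower, or 13.1% and 8.33%, against 6.95% and 8.01% of all genes, so that the share of lower ones was near the background. The counts of each list below are to be read against the same shares. The median difference was 0.025. The gene that rose was Nqo1, the NADPH quinone reductase and a standard NRF2 target, at 3.47-fold (difference 1.80 ± 0.26, adjusted p = 0.0194). The count was 0 without CSN8ΔIEC replicate 1 or 2, and 2 without CSN8fl/fl replicate 1. NRF2 itself (Nfe2l2, difference 0.031 ± 0.14), Keap1 (0.15 ± 0.15) and Cul3 (−0.041 ± 0.12) did not pass (adjusted p = 0.936, 0.684 and 0.893). The NRF2 partner Mafg differed by 0.43 ± 0.15 (adjusted p = 0.239) and Maff by −0.46 ± 0.24 (adjusted p = 0.413).

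**Figure D4:**
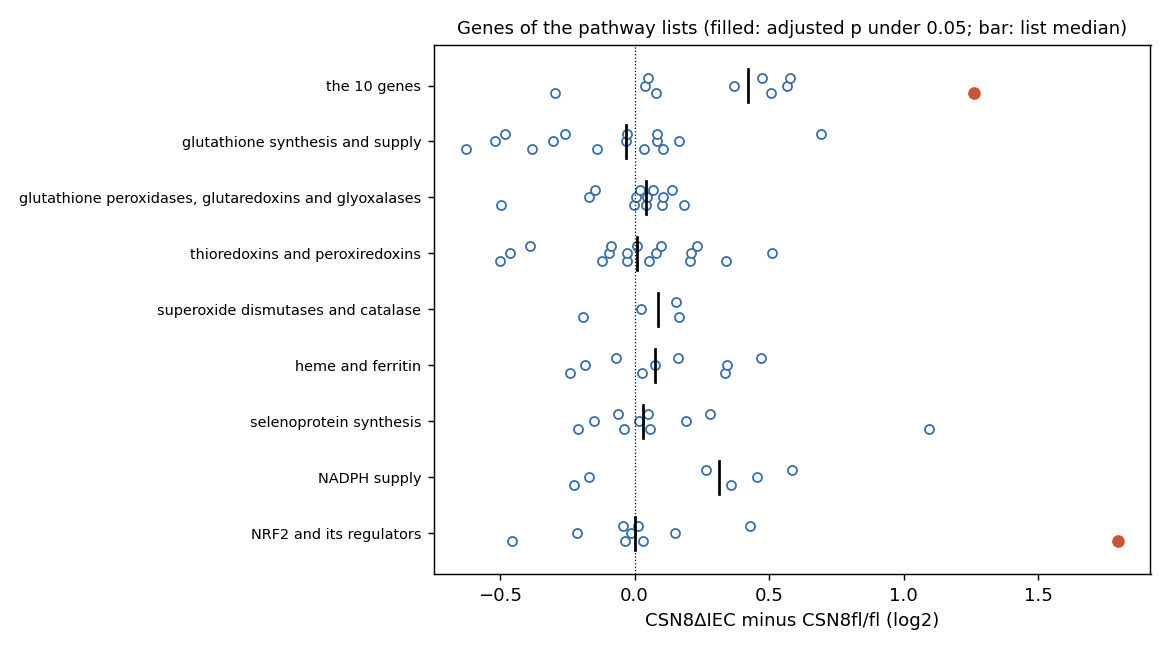
Genotype difference (CSN8ΔIEC minus CSN8fl/fl, log2) of the 10 genes and of the measured genes of the 8 further lists, 1 point per gene (filled, adjusted p under 0.05; bar, list median). Gclc and Nqo1 are the filled points, and the medians of the 8 lists lie between −0.031 and 0.31.

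Among 15 further genes of glutathione supply and breakdown, 0 passed in limma, with 1 higher and 3 lower at an unadjusted p under 0.05 and a median of −0.031. Ggct, which breaks down the γ-glutamyl dipeptides released from glutathione, was higher on every CSN8ΔIEC array (0.69 ± 0.20, adjusted p = 0.158). Dpep1, a dipeptidase of the cell surface (−0.63 ± 0.19, adjusted p = 0.181), and Cbs, which leads from homocysteine towards cysteine (−0.52 ± 0.17, adjusted p = 0.196), were lower on every CSN8ΔIEC array.

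Of 13 other glutathione peroxidases, glutaredoxins and glyoxalase genes, 0 passed, 1 was lower at an unadjusted p under 0.05 and the median was 0.043. The values with the smallest p were those of Hagh (−0.50 ± 0.22, adjusted p = 0.331), Esd (0.18 ± 0.13, adjusted p = 0.553) and Gpx4, the peroxidase of membrane lipids (−0.17 ± 0.15, adjusted p = 0.649). Of 17 thioredoxin and peroxiredoxin genes 0 passed, with 2 higher and 3 lower at an unadjusted p under 0.05 and a median of 0.0091. The methionine sulfoxide reductases Msra (−0.46 ± 0.11, adjusted p = 0.106) and Msrb1 (−0.39 ± 0.11, adjusted p = 0.157), which use thioredoxin to repair oxidised methionine, were lower on every CSN8ΔIEC array. Txnrd3, a further thioredoxin reductase, was higher on every one (0.51 ± 0.14, adjusted p = 0.129).

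Of 4 superoxide dismutase and catalase genes 0 passed, also at an unadjusted p, with a median of 0.089; catalase (Cat) differed by −0.19 ± 0.11, Sod1 by 0.15 ± 0.12 and Sod3 by 0.17 ± 0.22 (adjusted p = 0.47, 0.586 and 0.765). Of 9 genes of heme and ferritin 0 passed, 2 were higher at an unadjusted p under 0.05 and the median was 0.078. The ferritin light chain Ftl1 differed by 0.34 ± 0.13 (adjusted p = 0.275) and the heme transporter Slc48a1 by 0.47 ± 0.20 (adjusted p = 0.307). Fech, which inserts iron into protoporphyrin to form heme, differed by −0.24 ± 0.12 (adjusted p = 0.392).

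The profile nearest to that of Gclc over the 6 arrays, by the root-mean-square distance between log2 values after each gene's mean was subtracted, was that of the glutathione S-transferase Gstm2 (distance 0.124), followed by the TGF-β receptor Tgfbr2 (0.129) and the aldo-keto reductase Akr1c13 (0.168). The median distance of all genes from Gclc was 0.687. Their rises were 1.28 ± 0.15 for Gstm2, 1.09 ± 0.14 for Tgfbr2 and 1.09 ± 0.13 for Akr1c13 (adjusted p = 0.00996, 0.0129 and 0.00996), and in Gstm2 and Tgfbr2, as in Gclc, CSN8ΔIEC replicate 1 was the highest array and replicate 2 the lowest of that genotype. These genes were picked for their nearness to Gclc, so their similar rises and array order follow largely from the choice.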

How the data were processed

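The values, as deposited by the authors, were log2 signals per probe set. Per the submitters' processing notes they were made with RMA, which corrects background, quantile-normalises and summarises probes, and Partek 6.6. Settings and annotation build are not stated there. Of 22206 probe sets, 19572 had 1 gene symbol, 0 several and 2634 none. Where a gene had more than 1 (55 genes), the probe set with the highest mean was used, which left 19505 genes. Genotypes were compared by limma 3.58.1 under R 4.3.3 (functions lmFit and eBayes, 6 samples, 8.85 residual degrees of freedom after moderation, two-sided), with a threshold of 0.05 on Benjamini-Hochberg adjusted p-values over all genes; the script was tested on simulated data. Arrays have no read depth, and their number limits the precision. A further fit added labelled sex and age and their interaction with genotype. The 14 alternatives were a replicate block, labelled sex and age as a covariate, leaving out each array, libraries labelled female only, array medians, repeated quantile normalisation, no dim genes (mean under 6.87), trended robust variances and the mean of probe sets. The text names all 10 genes; of each further list the genes past the threshold and the 3 with the smallest p; and the 3 profiles nearest to a gene that passed. Slc3a2, Nfe2l2, Keap1, Cul3, Txnrd2, Prdx2, Prdx3 and Prdx4 were added after their values were seen. The genes, lists and rules were chosen with earlier results of these data known. Genes of the lists without a named probe set were not analysed here.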

Additional observations from a re-analysis of the deposited data

Results flagged for a closer look

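Slc7a11, Gpx2 and Srxn1 had CSN8ΔIEC signals above CSN8fl/fl in every library labelled female and below it in the library labelled male, as had 6.26% of all genes. Gpx2 did so by a small margin among those labelled female (12.88 in CSN8fl/fl replicate 2 against 12.90 in CSN8ΔIEC replicate 2). The labelled male difference minus the labelled female difference was −1.035 for Slc7a11 (SE 0.31), −0.336 for Gpx2 (SE 0.27) and −0.954 for Srxn1 (SE 0.25). In limma's interaction test the adjusted p-values were 0.421, 0.697 and 0.421 and the unadjusted ones 0.0141, 0.263 and 0.0075. Each value rests on 1 array of each genotype with the label male, of which CSN8fl/fl replicate 3 is the library that stood apart from the other 5, and its part in them was not tested.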

How the results depend on the processing

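Over the 14 alternatives, Gclm, Gss, Gsr, Slc7a11 and Txnrd1 kept a positive difference, as did Gclc, and Hmox1 kept a negative one in the 13 that tested it. Gclc did not pass without CSN8fl/fl replicate 2 or with libraries labelled female only. The count of members that rose was 0 with libraries labelled female only, 2 without dim genes and 2 with trended robust variances (Gclc and Gsr), and 0 to 1 without any 1 array. The number that fell was 0 throughout. More of all genes rose in the 2 settings with 2 members, 107 of 9753 without dim genes and 114 of 19505 with trended robust variances, against 73 of 19505. The higher member count there is therefore not particular to the 10 genes. With libraries labelled female only, 8 members had non-overlapping higher values, as had 20.4% of all genes. Without any 1 array 5 to 7 members had them, most without CSN8fl/fl replicate 3, where 15% of all genes did. The share of all genes was 10.7% with every array, so the higher counts alone do not show a stronger difference. The shares for the other omissions were not counted. Without 1 array, Gpx2 lay between −0.061 and 0.20, Srxn1 between −0.093 and 0.20 and Prdx1 between −0.019 and 0.087; the causes were not tested. Over all genes 73 rose and 137 fell; these were 16 to 88 and 25 to 140 without any 1 array, lowest in both without CSN8ΔIEC replicate 1, 21 and 76 with libraries labelled female only, and 114 rose with trended robust variances, where 1 gene passed for the interaction. The count of the pathway lists' genes that rose, 1, was 2 with the replicate block, 2 without dim genes, 3 with trended robust variances and 0 to 2 without any 1 array. Same-numbered samples of the genotypes shared labelled sex and age. Beyond that, little pairing by number was seen. Deviations of same-numbered samples from their genotype means correlated at 0.12, −0.024 and 0.038, and not every sample correlated best with its own number. With so few samples per genotype these values cannot show that pairing is absent. With the replicate block 69 genes rose and 133 fell, and the block changed no call of the 10 genes (Gclc adjusted p = 0.0255). The number of arrays limits the precision.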

Other observations

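Thioredoxin reductases and several glutathione peroxidases, GPX2 among them, contain selenocysteine, and the 10 genes of selenoprotein synthesis and selenium supply had a median difference of 0.032. None passed in limma, and 1 was higher at an unadjusted p under 0.05. That gene was Lrp8, a receptor for the selenium carrier selenoprotein P, with signals of 6.18, 5.40 and 5.31 in CSN8fl/fl and 6.94, 6.65 and 6.59 in CSN8ΔIEC. The groups did not overlap, and Lrp8 differed by 1.09 ± 0.23, or 2.14-fold (adjusted p = 0.0655, not past the threshold). Sephs1 differed by 0.28 ± 0.15 and Sepsecs by −0.21 ± 0.12 (adjusted p = 0.411 and 0.451).

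Glutathione and thioredoxin reductases draw on NADPH. Of 6 measured genes of NADPH supply 0 passed in limma, 3 were higher at an unadjusted p under 0.05 and the median difference was 0.31. The cytosolic isocitrate dehydrogenase Idh1 was at 11.33, 11.50 and 11.45 in CSN8fl/fl and at 12.03, 12.14 and 11.87 in CSN8ΔIEC. The groups did not overlap (0.59 ± 0.12, adjusted p = 0.0684). Its mitochondrial relative Idh2 differed by 0.46 ± 0.19 and Pgd of the pentose phosphate pathway by 0.36 ± 0.15 (adjusted p = 0.298 and 0.318).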
